A study of Mus musculus with 8 samples.

Results

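The regions described here are stretches of the mouse genome in which H3K36me3 was called in both B12-treated conditions and in neither condition without B12. There were 1980 of them, among 43018 intersections of at least 500 bases between the MEF B12 and OSKM B12 peak lists on chromosomes 1 to 19. A region was an intersection without a single base in a MEF or OSKM peak, so the members were chosen by the presence or absence of a called peak in each of the 4 lists. What follows from that choice is given as a description, with no test.

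The data are ChIP–seq libraries of H3K36me3 from i4F MEFs, mouse embryonic fibroblasts of E13.5 that carry doxycycline-inducible OCT4, SOX2, KLF4 and MYC (OSKM), the factors that reprogram somatic cells to pluripotency. All cells came from a single embryo, were labelled as clone 1, and were kept for 72 h in iPSC medium. Untreated cells (MEF), cells with 2 µM vitamin B12 (MEF B12), cells with doxycycline (OSKM, 1 µg/mL by the labels, whereas the study's methods give the dose in mg/ml) and cells with both (OSKM B12) gave 1 H3K36me3 library and 1 input library each. The inducible cassette was therefore present in every condition, and without replicate libraries the differences below could not be tested and carry no p-value. The H3K36me3 libraries held between 29046913 and 33399267 tags after filtering, and both libraries without B12 were deeper than both libraries with B12. The 4 lists held between 64364 and 67234 peaks on these chromosomes, but those of OSKM covered 91.8 Mb against 150.5 Mb in MEF, 162.6 Mb in MEF B12 and 162.6 Mb in OSKM B12. All 12 fibroblast markers checked, such as Col1a1 and Vim, held a peak in every list, none of 6 epithelial markers did, and of 7 pluripotency markers only Zfp42 held one, in OSKM. Of the markers of other cell types, Cd68 and Csf1r (blood) held a peak in all 4 lists and Ptprc in none, Kdr alone of 3 endothelial markers held one, in OSKM B12, and of 3 neural markers Tubb3 and Map2 held one in MEF and MEF B12 and Tubb3 in OSKM B12. Summed over the fibroblast markers, the density (fragments per base of the gene that lie in peaks, per 1000000 tags) came to 7.79 for MEF, 8.67 for MEF B12, 4.45 for OSKM and 8.83 for OSKM B12. In bulk chromatin, more cells with the mark and more mark per cell cannot be told apart, and the part of cell composition in the results below was not tested.

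H3K36me3 is laid down by SETD2, a methyltransferase that travels with elongating RNA polymerase II, and the mark therefore spreads over the bodies of transcribed genes and rises toward their 3′ ends. It is read by proteins that keep transcription from starting inside genes. The methyl group comes from S-adenosylmethionine, which cells renew through methionine synthase, an enzyme that uses vitamin B12 as its cofactor.

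Pieces of 4 regions show what such a stretch is made of. Each is the 300 bases at the centre of a region, on the strand of its gene and read from the GRCm38 genome, with every CG dinucleotide in capitals, the letters in which DNA methylation sits and which mark CpG islands. The Tcf12 piece (chr9:71851313-71851612, minus strand) lies in intron 19 of 21 exons and belongs to the region that ranks first when regions are ordered by the lower of their levels in both B12 lists. The Mtrr piece (chr13:68572123-68572422, minus strand) is from a region over exon 6 and intron 6 of the gene of methionine synthase reductase, which keeps methionine synthase active. The Lmbrd1 piece (chr1:24745138-24745437, plus strand) is from a region over exon 12 and intron 12 of a gene for lysosomal export of B12. The Rbms3 piece (chr9:117090391-117090690, minus strand) is from intron 3 of the gene with the most regions. The pieces held 1, 10, 3 and 6 CG dinucleotides in that order and had a GC content of 34.0%, 50.7%, 39.0% and 40.7%.
Tcf12: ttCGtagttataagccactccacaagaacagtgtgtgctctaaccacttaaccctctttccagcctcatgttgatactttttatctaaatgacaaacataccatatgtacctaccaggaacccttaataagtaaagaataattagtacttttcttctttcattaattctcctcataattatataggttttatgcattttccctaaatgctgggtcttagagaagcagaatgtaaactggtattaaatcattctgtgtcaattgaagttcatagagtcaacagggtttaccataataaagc
Mtrr: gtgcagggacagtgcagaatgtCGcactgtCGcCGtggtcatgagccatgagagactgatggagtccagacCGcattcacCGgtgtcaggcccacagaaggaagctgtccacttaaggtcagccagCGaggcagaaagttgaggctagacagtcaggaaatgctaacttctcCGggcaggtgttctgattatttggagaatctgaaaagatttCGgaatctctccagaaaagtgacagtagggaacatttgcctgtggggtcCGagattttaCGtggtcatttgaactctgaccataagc
Lmbrd1: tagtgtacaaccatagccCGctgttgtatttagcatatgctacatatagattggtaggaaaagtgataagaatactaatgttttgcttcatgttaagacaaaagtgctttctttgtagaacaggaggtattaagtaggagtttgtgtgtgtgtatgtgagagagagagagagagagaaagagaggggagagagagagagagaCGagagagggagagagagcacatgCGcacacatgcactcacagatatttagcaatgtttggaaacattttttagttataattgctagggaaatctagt
Rbms3: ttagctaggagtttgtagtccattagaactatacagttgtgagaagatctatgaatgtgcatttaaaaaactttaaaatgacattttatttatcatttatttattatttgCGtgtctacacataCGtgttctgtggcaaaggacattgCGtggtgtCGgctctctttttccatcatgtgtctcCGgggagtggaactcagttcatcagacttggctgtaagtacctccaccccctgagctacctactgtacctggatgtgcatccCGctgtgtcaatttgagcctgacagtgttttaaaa

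Calling in exactly the 2 B12 lists was the most frequent of the 6 ways in which 2 of the 4 lists can share a region. The 1980 regions were 4.60% of the intersections of both B12 lists (95% Wilson interval 4.41 to 4.80%, which covers counting error only, as do all intervals below). By the same rule, MEF and MEF B12 alone shared 1065 regions and MEF and OSKM B12 alone shared 916. The 3 pairs with OSKM shared far fewer, with 129 for OSKM and OSKM B12, 70 for MEF B12 and OSKM, and 38 for MEF and OSKM. The 38 are the opposite pattern, regions called only without B12, and were 0.0943% (0.0687 to 0.129%) of 40308 intersections, so that there were 52.1 regions called only with B12 for each of them (37.8 to 71.8). The small extent of the OSKM list moves with these counts, since each pair that holds it came out low and each pair that lacks it came out high, and its part was not tested. The counts moved strongly with the calling threshold: where every peak of all 4 lists had to reach a −log10 q of at least 5, 2367 regions were called only with B12 and 2 only without it, and where only the B12 peaks had to reach it, 3 of the 1980 were left. Among intersections of at least 1000 bases, 192 were called only with B12 and 0 only without it.

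**Figure D1:**
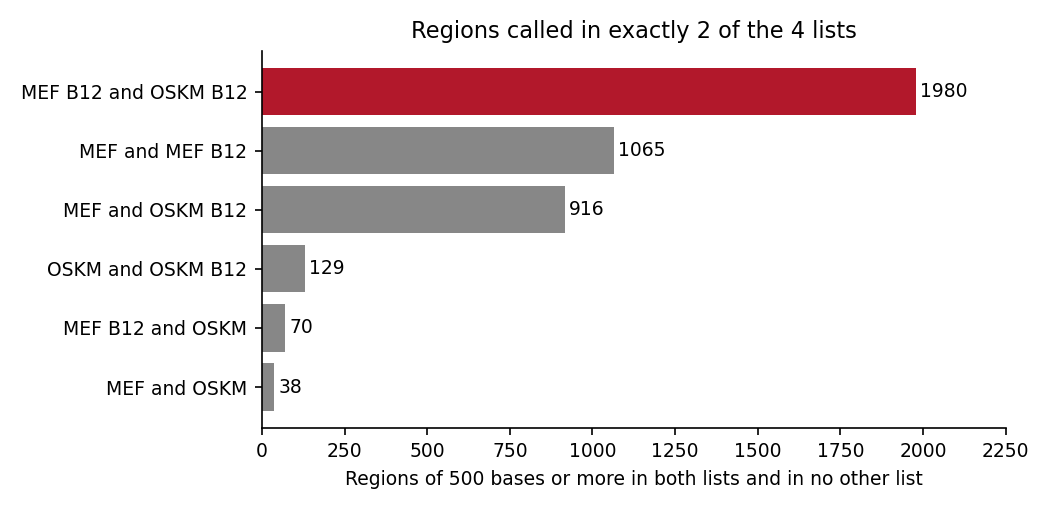
Number of regions of 500 bases or more (horizontal axis) that lie in both lists of a pair and in neither of the other 2 lists (vertical axis), on chromosomes 1 to 19, with 1 library per condition. The pair with B12 in both lists (red) reached 1980, and the pair without B12 in either list reached 38.

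Most intersections of the B12 lists were touched by peaks of the other lists. Peaks of both MEF and OSKM touched 30269 of the 43018 (70.4%), MEF peaks alone touched 10128 (23.5%) and OSKM peaks alone touched 641 (1.49%). Of the 2621 intersections free of MEF peaks, 75.5% were also free of OSKM peaks, whereas of the 40397 with a MEF peak 25.1% were. Counted over whole peaks of 500 bases or more, 6935 of 49390 MEF B12 peaks (14.0%) had no base in the MEF or OSKM lists, and 51.0% of those (49.8 to 52.1%) met an OSKM B12 peak. In OSKM B12 the figures were 7403 of 51033 peaks (14.5%), of which 48.5% met a MEF B12 peak. In the reverse direction, 2292 of 49216 MEF peaks (4.66%) and 599 of 45498 OSKM peaks (1.32%) had no base in either B12 list, and 7.16% and 18.5% of those met a peak of the other list.

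The regions were shorter and had a lower pileup than other intersections of the B12 lists. Their median length was 644 bases (quartiles 559 and 792), only 192 reached 1000 bases, and the longest had 1999. Regions touched by MEF and OSKM peaks had a median of 2293 bases, and those touched by MEF alone had 822. Together the 1980 regions made up 1409 kb. Just inside the length limit, the 420 regions of 500 to 549 bases had a median scaled pileup (pileup per 1000000 tags, explained below) of 0.416 in MEF B12 and 0.429 in OSKM B12, and just outside it the 541 of 450 to 499 bases had 0.420 and 0.425.

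The pileup is the authors' mean number of H3K36me3 fragments over a base of the peak that holds the region, given here per 1000000 tags of the library and called scaled pileup. Its median over the regions was 0.422 in MEF B12 (quartiles 0.387 and 0.467) and 0.429 in OSKM B12 (0.393 and 0.473). As deposited, these medians were 12.3 and 12.7 fragments. The regions touched by both MEF and OSKM peaks had 0.591 and 0.600, those touched by MEF alone 0.474 and 0.477, and those touched by OSKM alone 0.436 and 0.452. The regions called only with B12 thus had the lowest median of the 4 classes in both lists, at 0.773 of that of all other intersections when both lists are averaged. The order of the medians was the same among regions of 500 to 999 bases, where the medians were 0.421 and 0.428 for the regions, 0.464 and 0.468 with MEF alone, and 0.497 and 0.507 with both. The input level that the deposited fold enrichment implies was 4.08 fragments in MEF B12 and 4.24 in OSKM B12 over the regions, against 4.34 and 4.54 where both other lists had peaks, and the median fold enrichment was 2.60 and 2.58 against 3.37 and 3.39. A pileup this low was not outside the range of the lists without B12: of the MEF peaks of 500 bases or more, 32.7% had a scaled pileup at or below 0.422, and of the OSKM peaks 40.6% had one at or below 0.429. A peak missing from a list means only that no enrichment was called there at this depth, and tags outside peaks were not analysed here.

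The levels of MEF B12 and OSKM B12 over the regions were close. The scaled pileup was higher in OSKM B12 than in MEF B12 in 1070 regions (54.0%), and the median ratio of OSKM B12 to MEF B12 was 1.02 (quartiles 0.907 and 1.14). On fold enrichment over input, this ratio was 0.996, so the direction depends on the scale. Closeness was not particular to the regions. Of intersections touched by MEF alone, OSKM alone and both, 50.9%, 57.6% and 58.1% had the higher scaled pileup in OSKM B12. Their median ratios were 1.00, 1.04 and 1.03. From region to region the pileups of both lists were loosely related, with a Pearson r of 0.169 on the log scale over 1980 regions. This was not particular to the regions, since r was 0.178 with OSKM alone and 0.291 with MEF alone. Over the 30269 intersections touched by both other lists it was 0.771. No r given here is a test, since regions share libraries and the members were cut at a low level.

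**Figure D2:**
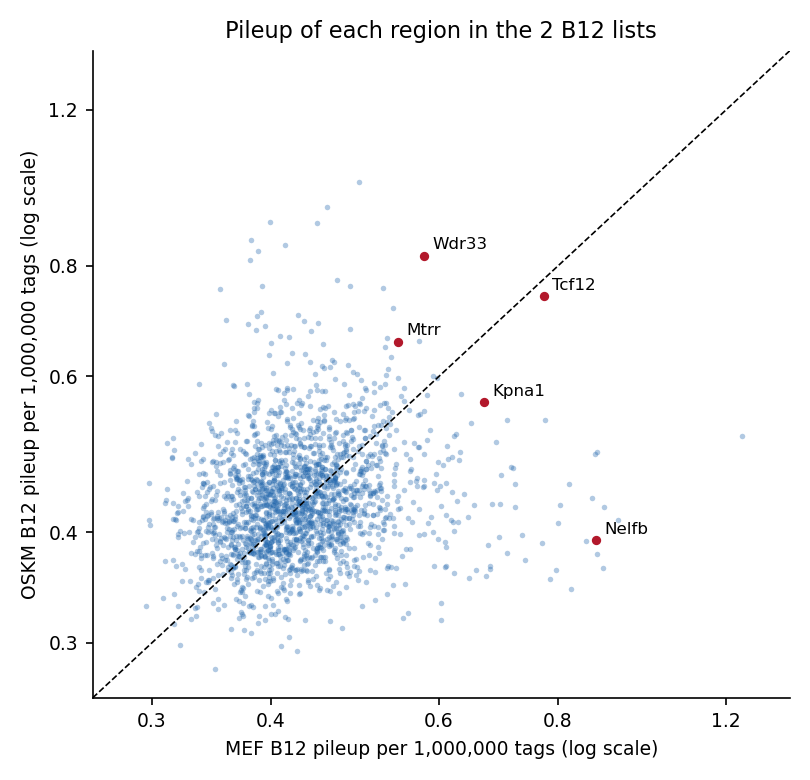
Scaled pileup (per 1000000 tags) of the MEF B12 peak (horizontal axis) and of the OSKM B12 peak (vertical axis) that hold each of the 1980 regions (points), both on log scales, with the line of equal levels dashed and 5 regions in red with their gene. The points lie on both sides of the line (median ratio 1.02), and Tcf12 ranks first by the lower of its 2 levels, although single lists hold higher values.

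Some regions stood well above the medians in both lists. Single values reached 1.25 in MEF B12 and 0.995 in OSKM B12, and the regions were ranked by the lower of their 2 values, so that both lists had to be high. The first by this rank, in Tcf12, which encodes an E-protein transcription factor of mesenchymal and neural cells, had 0.773 in MEF B12 and 0.740 in OSKM B12 (chr9:71851115-71851810, intron 19). The nearest MEF peak was 739 bases away and the nearest OSKM peak 644. Sema3c, which encodes a secreted guidance cue, had 0.597 in both lists over exon 15 and its adjoining introns. Map4k5, a kinase gene, had 0.592 and 0.600 in intron 28. Both levels were well above the medians of 0.422 and 0.429 in each of these 3 genes.

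Of the other regions among the 10 highest by this rank, those named next had 0.552 to 0.670 in MEF B12 and 0.561 to 0.822 in OSKM B12. Wdr33, a subunit of the machinery that cleaves and polyadenylates mRNA, had 0.578 in MEF B12 and 0.822 in OSKM B12 in intron 16, only 123 bases from a MEF peak and 70 from an OSKM peak. Sec62, part of the protein translocation machinery of the endoplasmic reticulum, had 0.584 and 0.571 over 1428 bases of intron 3. The others named here were in Snx10 (0.571 and 0.657), Kpna1 (0.670 and 0.561, 767 bases past the end of the gene), Qdpr (0.552 and 0.583) and Hipk2 (0.552 and 0.562). Wdr33 and Snx10 were higher in OSKM B12 and Kpna1 in MEF B12 by the clearest margins of those named.

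Strong calls in both lists were rare among the regions. Only 3 of the 1980 regions had a −log10 q of at least 5 in each B12 list, namely those in Tcf12 (7.81 and 5.80), Wdr33 (5.47 and 9.56) and Eogt (5.26 and 5.62), the last named for this count after its values were seen. Of all 43018 intersections, 11267 reached this level in both lists. It was 1 of 641 with OSKM alone, 134 of 10128 with MEF alone and 11129 of 30269 with both. Counted in each list by itself, 65 regions reached this level in MEF B12 and 56 in OSKM B12. The counts were 32 and 41 with OSKM alone, 834 and 840 with MEF alone, and 13887 and 14841 with both. The region in Nelfb, a subunit of the negative elongation factor, is an example of an uneven one, with a scaled pileup of 0.877 in MEF B12 and 0.391 in OSKM B12.

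All 10 of the longest regions lay in introns, and only that of Vps45 touched an exon. Zfp54, a zinc finger gene, held 1999 bases in intron 4 of 5 exons, with 0.385 in MEF B12 and 0.501 in OSKM B12. Zdhhc20, a palmitoyltransferase gene, held 1997 bases in intron 4, with 0.424 and 0.466. Vps45, a gene of vesicle fusion, held 1879 bases over exon 13 and its adjoining introns, with 0.452 and 0.464, and Atp6v1h, a subunit of the lysosomal proton pump, held 1833 bases in intron 7, with 0.596 and 0.465. Rbms3, Cmip, Dlgap4, Micu2, Yap1 and Irf2 followed with 1810 to 1647 bases. In 9 of these 10 genes the OSKM list covered a smaller part of the gene than the MEF list, for example 5.90% against 25.8% in Zfp54 and 13.7% against 20.3% in Cmip. Dlgap4 was the other, with 13.5% in OSKM and 13.1% in MEF. A lower OSKM level was not particular to these genes. Outside the regions, density was higher in OSKM than in MEF in only 1.68% of the 1427 genes with a region. The share was 1.99% in the 8425 genes without a region that peaks of any list covered over at least 10% of their body.

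Nearly all regions lay in genes, as did the rest of the intersections, and a larger share of them lay near the start. Of the 1980, 1817 (91.8%) had their midpoint in the body of a protein-coding gene. The shares were close in intersections touched by MEF alone (92.9%), by OSKM alone (92.5%) and by both (93.9%). The first 20% of the gene (5′ end) held 297 regions (15.0%, 13.5 to 16.6%), the middle held 1106 (55.9%, 53.7 to 58.0%) and the last 20% (3′ end) held 414 (20.9%, 19.2 to 22.8%). A further 127 (6.41%) lay within 10 kb past the end of a gene, 5 lay within 5 kb before a start, and 31 (1.57%) lay elsewhere. Among intersections touched by both MEF and OSKM peaks, the 5′ end held 7.48% (7.19 to 7.78%) and the 3′ end 29.4% (28.8 to 29.9%). The class touched by MEF alone lay in between, with 11.6% and 24.0%. The class touched by OSKM alone had 12.3% (10.0 to 15.1%) and 22.0%, and its interval at the 5′ end overlapped that of the regions. Among regions of 500 to 999 bases the 5′ end held 15.2% of the regions called only with B12. It held 13.0% with OSKM alone, 12.2% with MEF alone and 10.2% with both, so the order of the classes was the same over a smaller range.

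**Figure D3:**
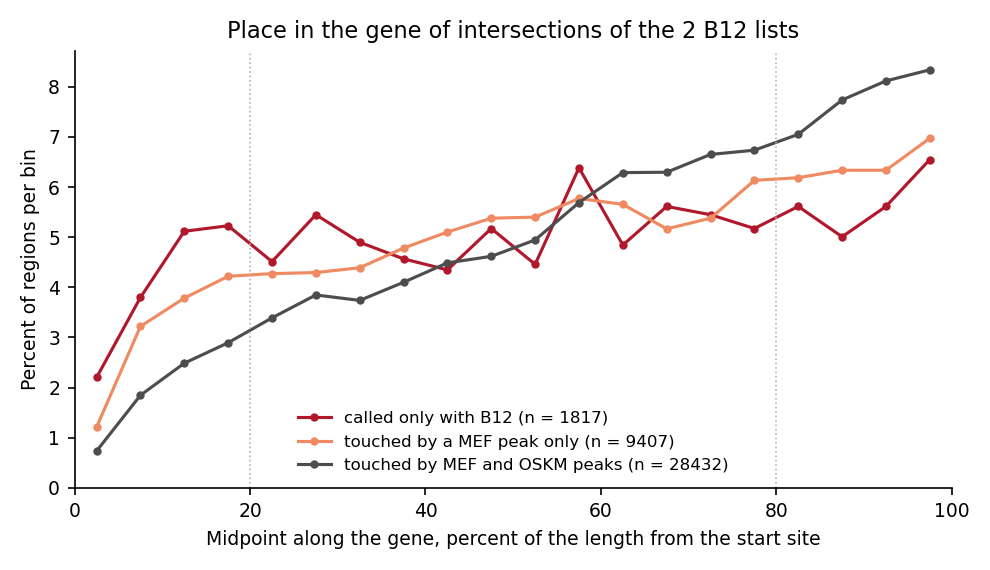
Percent of regions (vertical axis) in each of 20 equal bins of the gene from the start site (horizontal axis, percent of the gene's length), for 3 classes of intersections of the MEF B12 and OSKM B12 lists, with dotted lines at the limits of the 5′ and 3′ ends. The regions called only with B12 (red, 1817 in genes) were spread almost evenly after the first bins, whereas those also touched by MEF and OSKM peaks (grey, 28432) rose toward the 3′ end.

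The regions lay mainly in introns. Of the 1817 in gene bodies, 1376 (75.7%, 73.7 to 77.6%) touched no exon of the longest transcript, and 210 (11.6%) lay wholly in the first intron. Of the 28432 in gene bodies that both other lists touched, 26.8% touched no exon and 2.69% lay wholly in the first intron, but those regions were also longer. With MEF alone these shares were 62.5% and 6.82%. With OSKM alone they were 69.5% (65.7 to 73.0%) and 10.3% (8.09 to 13.0%). For the first intron, the interval with OSKM alone overlapped that of the regions (10.2 to 13.1%). Exons made up 7.84% of the bases of the regions, 10.7% with MEF alone and 16.8% with both. Among regions of 500 to 999 bases these shares were 8.01%, 10.6% and 13.6%. A first exon was touched by 5 regions, 0.275% of those in gene bodies. The share was 0.234% with MEF alone, 0.169% with OSKM alone and 0.310% with both. A last exon was touched by 92 (5.06%), against 7.30%, 6.41% and 23.0% in the same order. Lying entirely inside the last exon were 58 (3.19% of those in gene bodies), against 4.06%, 3.04% and 2.51%. The GC content was 46.0%, against 45.9% where both other lists had peaks, the CpG content was 11.4 per kb against 12.3, and repeats made up 21.0% of the bases against 21.1%. With MEF alone the CpG content was 11.1 per kb and with OSKM alone 12.4. At 500 to 999 bases it was 11.5 for the regions, 11.5 with MEF alone, 12.4 with OSKM alone and 12.5 with both. The Tcf12 piece printed above was below the CpG content of the regions and the Mtrr piece above it.

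The 3 highest regions of each place, again by the lower of both levels, were as follows, leaving out those already given. At the 5′ end they were in Pdia3, which encodes a disulfide isomerase of the endoplasmic reticulum (0.570 in MEF B12 and 0.543 in OSKM B12, intron 1), Acbd6 (0.531 and 0.553, over exon 3) and Invs, a gene of ciliary signalling (0.533 and 0.531, intron 3). Downstream of a gene they were those of Kpna1, Tmem186 (0.558 and 0.549, 1534 bases past the end) and Rnf185 (0.536 and 0.717, 1359 bases past the end). Upstream of a start they were near Tnrc18 (0.370 and 0.397), Gm11146 (0.426 and 0.358) and 1700019N19Rik (0.500 and 0.424). Elsewhere, 13 of the 31 regions lay on a gene that is not protein-coding, and the 3 highest by the same rank lay in the noncoding RNA genes Crnde (0.499 and 0.491) and Dleu2 (0.520 and 0.557) and over 3110039I08Rik (0.457 and 0.463). The other 18 lay on no annotated gene. By place, the median scaled pileup ran in MEF B12 from 0.416 (elsewhere) to 0.424 (middle) and in OSKM B12 from 0.425 (5′ end) to 0.437 (downstream), leaving out the 5 upstream regions.

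Most regions lay close to a MEF peak, and most of those in genes lay between MEF peaks of the same gene. The nearest MEF or OSKM peak was at a median of 592 bases (quartiles 264 and 1467), and 1821 regions (92.0%, 90.7 to 93.1%) had one within 5 kb. MEF peaks were closer than OSKM peaks, with a median of 688 bases against 2042, and 60.4% of regions had a MEF peak within 1 kb against 29.2% with an OSKM peak. The MEF list also covered more of the genome (150.5 Mb against 91.8 Mb in OSKM), and the part of this extent was not tested. For these distances and for the share of genes with a peak, no values of other stretches are given. Of the 1817 regions in gene bodies, 1427 (78.5%, 76.6 to 80.4%) lay between MEF peaks of the same gene, in a gap with a median of 4048 bases from peak to peak. Another 267 (14.7%) lay 5′ of every MEF peak of the gene, 97 (5.34%) lay 3′ of every one, and 26 lay in a gene with no MEF peak. In 99.0% of the regions in gene bodies (98.4 to 99.4%) the gene held a MEF or an OSKM peak elsewhere. Neither of the B12 peaks that held the region touched a MEF or OSKM peak in 1141 regions (57.6%), 1 of them did in 392 (MEF B12) and 395 (OSKM B12), and both did in 52.

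**Figure D4:**
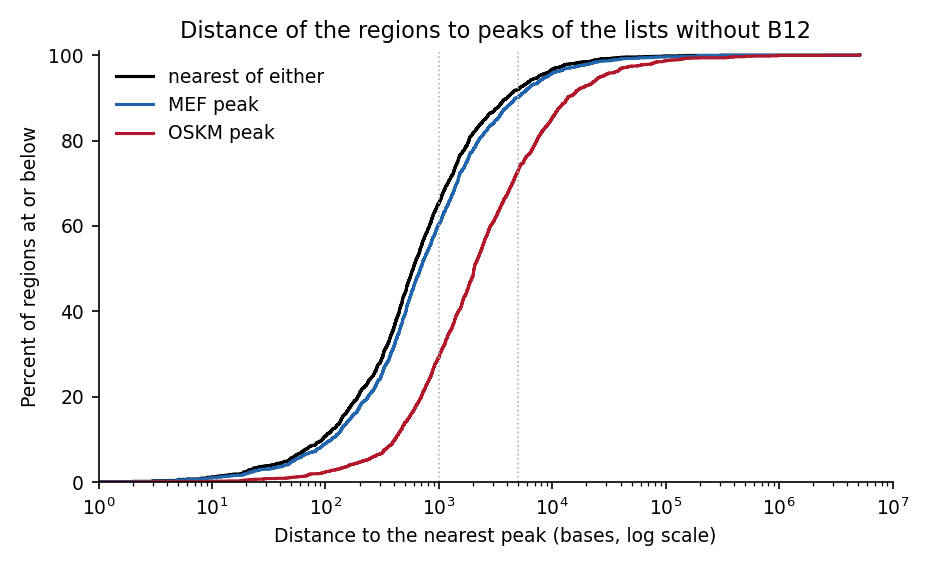
Cumulative percent of the 1980 regions (vertical axis) by distance to the nearest MEF peak (blue), OSKM peak (red) or either (black), in bases on a log scale, with dotted lines at 1000 and 5000 bases. Within 1000 bases, 60.4% had a MEF peak and 29.2% an OSKM peak.

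Only 66 regions had no MEF or OSKM peak within 10 kb, and 9 had none within 50 kb. The most remote was in Pcdh9, a protocadherin gene of neurons, 5144 kb from the nearest such peak, with 0.471 in MEF B12 and 0.411 in OSKM B12. Adgrl3, an adhesion receptor gene, followed at 302.4 kb (0.389 and 0.383), and Fmnl2, a formin gene, at 149 kb (0.455 and 0.387). The others were in Zfp612, near Sergef, in Rgs2, in D1Ertd622e with 2 regions, and on chromosome 16 outside any annotated gene. D1Ertd622e was the strongest of the 9 in OSKM B12, with 0.428 and 0.564 in its region at chr1:97645530-97646575. These remote regions were named after their distances were seen.

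In 15 of the 1427 genes with a region, neither MEF nor OSKM held any peak. No share for genes without a region is given beside this count. They included Hey2 and Bhlhe41, which encode helix-loop-helix repressors, Gper1, a membrane oestrogen receptor gene, Rgs2, a regulator of G-protein signalling, Btd, which encodes biotinidase, Rpp40, a subunit of RNase P, and Stab2, a scavenger receptor gene. B12 peaks covered 5.39% of Hey2 in MEF B12 and 13.9% in OSKM B12, 33.8% and 30.5% of Gper1, and 11.3% and 21.7% of Rpp40, which had 2 regions. These genes were named after the count was seen.

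The share of marked genes with a region was larger among longer genes. Regions fell in 1427 of 20807 protein-coding genes on chromosomes 1 to 19 (6.86%), and in 12.8% of the 9664 genes that were marked, meaning covered by peaks over at least 10% of their body in any list. Of the marked genes under 10 kb 1.66% held a region, of those from 10 to 30 kb 7.20%, from 30 to 100 kb 20.7%, from 100 to 300 kb 46.4%, and of the 35 longer genes 65.7%. Per Mb of marked gene the count ran only from 2.37 to 4.71 regions. The 1239 marked genes with a region had a median length of 61.1 kb and 13 exons, against 18.3 kb and 9 exons in the 8425 other marked genes. Some 302 genes held 2 or more regions, with 692 regions in all.

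Among marked genes, the 1239 with a region were less covered outside the regions themselves than the 8425 others in every list. The mean covered share of the gene, without the bases of the regions, for MEF, MEF B12, OSKM and OSKM B12 came to 34.5%, 38.4%, 18.6% and 38.3%, against 49.5%, 51.9%, 34.6% and 52.5% in the others. Their density outside the regions was higher in MEF B12 than in MEF in 94.8% of the genes, with a median log2 change of 0.22 on the scale of density plus 0.05, and higher in OSKM B12 than in OSKM in 99.5%, with a median of 1.03. In the other marked genes the shares were 89.6% and 98.7% and the medians 0.20 and 0.96, so a higher density with B12 was general. The densities come from the same libraries that chose the regions and are given without a test. A gene could hold a region only where part of it was free of MEF and OSKM peaks. Lower coverage by these lists therefore follows in part from the rule. The genes with a region were also longer than the others, as given above, and were not matched for length.

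The genes with the most regions were long. Rbms3, which encodes an RNA-binding protein and spans 1052 kb on chromosome 9, held 8, and the next genes by count and then by shorter length included Col14a1, Gfra1 and Ehbp1, with 5 each. Over the 8 regions of Rbms3 the scaled pileup ran from 0.350 to 0.458 in MEF B12 and from 0.385 to 0.577 in OSKM B12. The highest in OSKM B12 was in intron 8 (chr9:116718142-116718678) and the longest was the one in intron 3 from which the piece above was taken. The MEF list covered 6.53% of the gene and the OSKM list 2.90%, against 8.18% for MEF B12 and 9.62% for OSKM B12.

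Col14a1 encodes a fibril-associated collagen of mesenchymal tissue, and the MEF, MEF B12, OSKM and OSKM B12 lists covered 31.5%, 40.9%, 8.15% and 34.3% of it, so the OSKM list held the least. Gfra1, a co-receptor for GDNF, was covered over 14.5%, 21.2%, 2.01% and 14.1% in the same order, and 3 of its 5 regions lay in intron 9. Ehbp1, a gene of endocytic tubules, was covered over 11.4%, 15.5%, 4.19% and 17.5%. In Rbms3 and in all 3 of these genes the covered share was lowest in OSKM. This was general, since density was higher in OSKM than in MEF in only 1.99% of marked genes without a region. The covered shares of the named genes include the regions themselves.

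**Figure D5:**
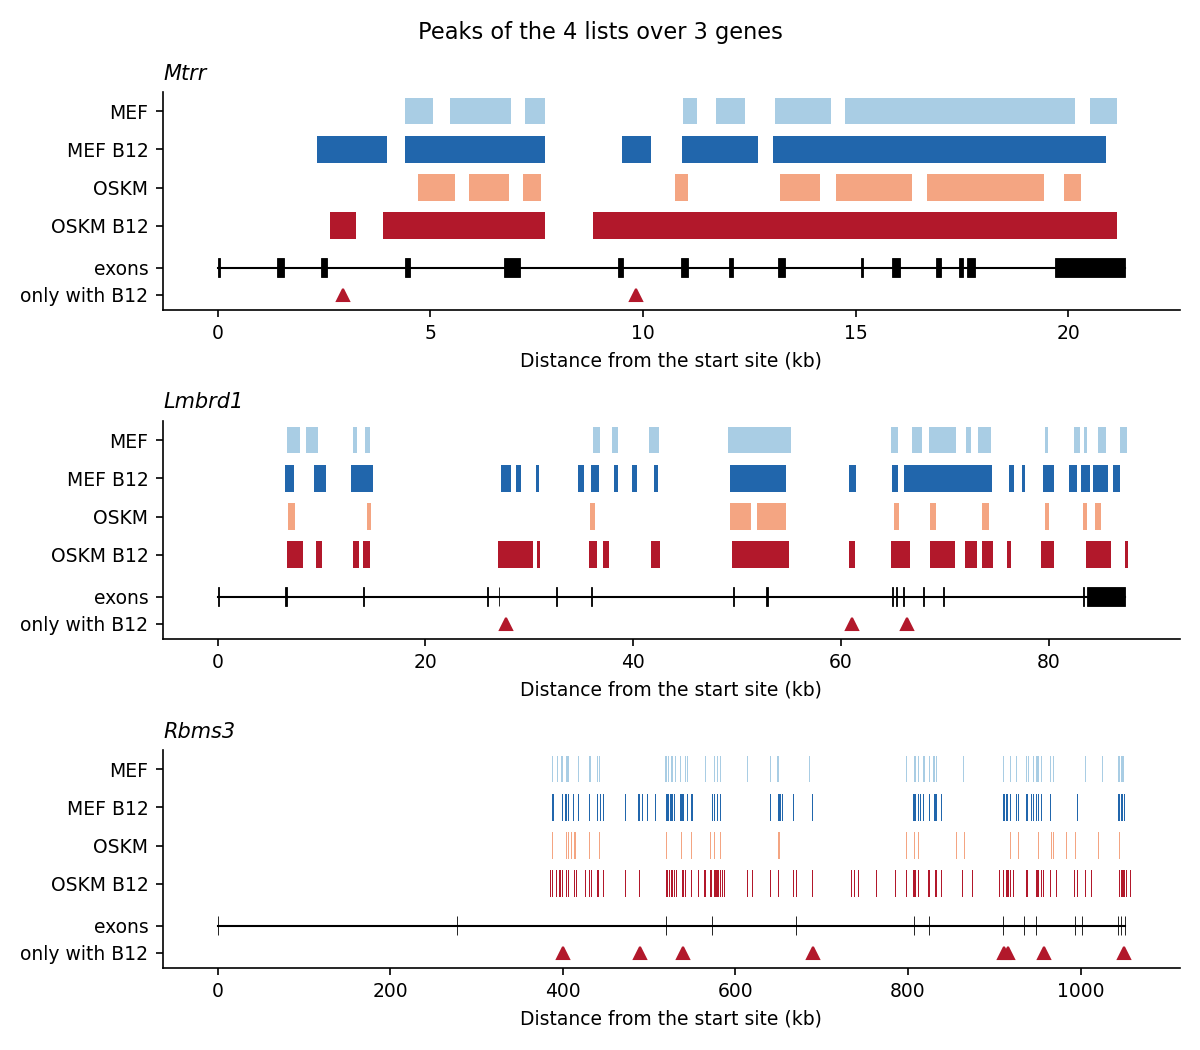
Peaks of the 4 lists (coloured bars, 1 row per list), exons of the longest transcript (black) and midpoints of the regions called only with B12 (red triangles) over Mtrr, Lmbrd1 and Rbms3, against distance from the start site in kb. The 2, 3 and 8 triangles stand where both B12 rows hold a bar and the MEF and OSKM rows are empty.

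Genes of B12 use and one-carbon metabolism held regions about as often as marked genes at large. Of the 34 on the list 29 were marked, and 4 of these held a region (13.8%, beside 12.8% of all marked genes). Mtrr held 2. The one over exon 6 had a scaled pileup of 0.544 in MEF B12 and 0.657 in OSKM B12 (chr13:68571938-68572607), and the one in intron 3 had 0.415 and 0.461. The lists without B12 covered 51.1% (MEF) and 39.3% (OSKM) of the gene, and the lists with B12 covered 71.2% (MEF B12) and 78.5% (OSKM B12).

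Lmbrd1 held 3 regions, in intron 5 (0.390 in MEF B12 and 0.437 in OSKM B12), in intron 9 (0.381 and 0.459) and over exon 12 (0.492 and 0.446). The first was 7851 bases from a MEF peak and 7554 from an OSKM peak, and the third only 132 and 479. Mthfd1l, which encodes a mitochondrial enzyme of formate production, held 1 (0.429 and 0.433), and Mtap, which recycles methionine from methylthioadenosine, held 1 (0.408 and 0.468). Both B12 lists covered more of Lmbrd1 and Mthfd1l than either list without B12, for example 33.3% and 29.4% of Lmbrd1 against 23.1% in MEF and 10.8% in OSKM. In Mtap the MEF B12 list covered 51.1% against 52.0% in MEF. These shares, like those of Mtrr above, include the bases of the regions, which by the rule lie in B12 peaks only. A larger share with B12 therefore follows in part from the choice of the genes. Nor was it tested as particular to them. Among marked genes without a region, density rose from MEF to MEF B12 in 89.6% and from OSKM to OSKM B12 in 98.7%.

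Of 31 genes that write, erase or read H3K36 methylation 28 were marked, and 5 held a region (17.9%, beside 12.8% of all marked genes). They were Nsd2, a methyltransferase of H3K36 (0.433 in MEF B12 and 0.429 in OSKM B12, intron 2), Smyd2, a methyltransferase (0.327 and 0.437), the demethylases Kdm4b (0.369 and 0.448) and Kdm4c (0.366 and 0.385), and Psip1, a reader of the mark (0.375 and 0.450). All 5 were near or below the medians of the regions in MEF B12. Among 25 elongation genes, all marked, 4 held a region (16.0%, beside the same 12.8%), namely Ell2 (0.419 and 0.349), Aff4 (0.486 and 0.414), Nelfa (0.424 and 0.421) and Nelfb. Of 19 marked genes of Polycomb and DNA methylation 1 did (5.26%), Suz12 (0.447 and 0.384).

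Of 26 mesenchymal and fibroblast genes 24 were marked, and 7 of these held a region (29.2%, beside 12.8%), but the genes of this list were not compared with others of their length. Tgfbr2, a receptor for TGF-β, held 3 regions, all in intron 2, with 0.400 to 0.517 in MEF B12 and 0.385 to 0.500 in OSKM B12. Prrx1, a transcription factor of limb mesenchyme, held 3 in intron 1, where 2 shared an OSKM B12 peak, with 0.361 to 0.421 and 0.484 to 0.490. Zeb1, a repressor of epithelial genes, held 2 (0.571 and 0.397, 0.470 and 0.419). Tgfb1 (0.373 and 0.383), Tgfbr1 (0.521 and 0.426), Ddr2, a collagen receptor gene (0.412 and 0.411), and Tcf4 (0.377 and 0.356) held 1 each. No region lay in any of 16 epithelial genes, of which 2 were marked, or of 21 pluripotency genes, of which 5 were.

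Among gene families, to be read beside the 12.8% of all marked genes, 29 of 288 marked Zfp genes (10.1%), 20 of 163 solute carriers (12.3%), 14 of 133 Tmem genes (10.5%), 6 of 41 Usp genes (14.6%), 3 of 39 Rab genes (7.69%) and 1 of 10 Klf genes (10.0%) held a region. Of 19 marked collagen genes 5 did (26.3%), and of 14 Kdm genes 4 did (28.6%). The counts were 0 of 70 for cytosolic ribosomal proteins, 4 of 72 mitochondrial ribosomal proteins (5.56%), 1 of 35 complex I subunits (2.86%) and 2 of 35 proteasome subunits (5.71%). Of 11 marked Hox genes 0 did, and of 21 clustered protocadherins 1 did. The families were not compared with other genes of their length.

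The regions were spread over all the chromosomes, from 3.89% of the intersections on chromosome 3 to 5.64% on chromosome 12. They came from 1970 MEF B12 peaks and 1965 OSKM B12 peaks, so that few shared a peak. Of the 1980 regions, 65 overlapped 2 or more protein-coding genes, and their gene is uncertain.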

How the data were processed

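The members and the gene lists were chosen with earlier results of these data known. The data were 8 libraries, 1 H3K36me3 and 1 input per condition. Alignment to mm10 was done by the authors with Bowtie (version 0.12.9 per the submitters' notes), who merged runs, removed duplicates and called broad peaks with MACS2 2.2.6 in each library against its input, never on pooled libraries. The q cut-offs per the file headers were 0.05 (strong) and 0.1 (broad). The deposited pileup is a coverage signal (extended fragments per base, averaged over a peak) and is not scaled to depth; the deposited fold enrichment is a ratio to local input. The authors' −log10 p-value and q-value columns were used only to filter and rank. Tags outside peaks were not used here.

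Peaks were intersected by base in Python 3.11.15 with NumPy 2.4.6 and pandas 2.3.3. The search was checked base by base in 200 simulated cases, of which 0 differed. Pileup was divided by H3K36me3 tags and multiplied by 1000000. The implied input level was (pileup + 1)/fold enrichment − 1. Genes were the longest transcripts of GENCODE M21 on GRCm38, and sequences came from RefSeq's GRCm38 genome. Of 176 list symbols, 175 were found on chromosomes 1 to 19. Named were the 10 highest regions by the lower of both scaled pileups, the 10 longest, the 3 highest of each place by the same measure, the 5 genes with most regions and every list gene with a region; some of these are not reported here. With 1 library per condition no test was run. Shares carry 95% Wilson intervals, which cover counting error only.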

Additional observations from a re-analysis of the deposited data

Results flagged for a closer look

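The sex chromosomes were outside the comparisons. Chromosome X held 65 regions called only with B12 among 1132 intersections of the MEF B12 and OSKM B12 lists (5.74%), of which 59 lay in gene bodies, against 1 region called only without B12. Their median scaled pileup was 0.353 in MEF B12 and 0.355 in OSKM B12. Chromosome Y held 3 among 37.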

How the results depend on the processing

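The count and the share of regions depended on the peak threshold, the length limit and the reading of the rule, and the cause was not tested. With B12 peaks of −log10 q of at least 5 and the other lists as deposited, 3 regions were left (0.0266% of intersections). With them 100.0% lay within 5 kb of a MEF or OSKM peak, the ratio of OSKM B12 to MEF B12 pileup was 1.10, the level against other intersections 0.954, and the 5′ end, middle, 3′ end, downstream and elsewhere held 0, 33.3, 66.7, 0 and 0%. With that limit on all 4 lists there were 2367, a share of 21.0%, 1184 for each region called only without B12, and 72.0% had a gene with a MEF or OSKM peak. From 200 bases there were 6858 (11.9%; 18.9 for each region called only without B12). From 1000 bases there were 192 (0.669%), with 95.8% within 5 kb, a relative level of 0.738, 13.0, 59.9 and 18.2% at the 5′ end, middle and 3′ end, 6.94% exon bases, a GC content of 45.4% and 10.6 CpG per kb; the ratio to regions called only without B12 could not be formed, since none of those was left. With no MEF or OSKM peak within 1 kb there were 686 (1.59%; 137 for each). Merging peaks at most 1 kb apart gave a share of 5.47%, 36.3 for each, 85.2% within 5 kb, 98.0% with a gene that held a MEF or OSKM peak and 8.67% exon bases. With the bases of MEF and OSKM peaks cut out there were 6223 (14.5; 81.9 for each), and 11.3 and 23.3% lay at the 5′ and 3′ ends. A gene cut into 3 equal parts gave 27.2, 30.5 and 34.1% in order, and ends of 10% gave 5.51, 75.1 and 11.2%. With genes of every type, 0.960% lay upstream or elsewhere (1.82% for protein-coding genes) and 9.35% of bases were exonic. Within 1 kb the share near a peak was 65.4% and within 10 kb 96.7%. The ratio of OSKM B12 to MEF B12 was 1.04 for undivided pileup and fell to 0.996 on fold enrichment, the only direction that turned; on that scale the level against other intersections was 0.821. The last 2 alternatives were chosen after seeing the data: leaving the OSKM list out of the rule gave 2621 regions (6.09%), and leaving the MEF list out gave 12108 (28.1%).

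The other 37 alternative values stayed within 1.5 times the count or within the counting interval. Dividing the count by tags gave no separate value, as 1 pair of libraries is involved. No paired analysis was possible because only 1 library was made per condition. Depth limits every call, and no value has a replicate.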
